A study of Zea mays with 18 samples.

Results

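Transcript assembly on the B73 maize genome gave 77704 loci outside introns, and 37156 of them carried no gene identifier and no gene name in the assembly's list of assigned identifiers. These loci without a B73 gene are described here. They were chosen only by that empty entry, not by any measured value. Loci with a B73 identifier of the Zm00001d series numbered 40171. The remaining 377 loci carried another entry and were kept out of both sets, namely 107 with an older GRMZM identifier only, 58 signal recognition particle RNA loci, 60 ribosomal RNA loci, 143 other named loci and 9 not analysed here.

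The study compared kernels of 2 maize inbred lines, DAN3130 and JI63, during late kernel formation, in work on folate accumulation in maize grain. Whole kernels were taken from field-grown plants at 3 stages, on day 24 after pollination (DAP 24), on day 35 (DAP 35) and at maturity, once all plants had turned yellow. Each of the 6 groups of line and stage had 3 libraries described as biological replicates, 18 in all, named here by library code. Both lines originated in China, DAN3130 from an American hybrid and JI63 from a cross of several lines, and neither is B73. The labels give kernel as the tissue, so embryo, endosperm and pericarp were measured together. RNA was described as pooled before sequencing without stating which plants were joined, so p-values measure the spread between these libraries, which may be partly technical.

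An assembled locus joins overlapping transcript fragments into a single unit, and it stays without a gene when it matches no model of the reference annotation. Such loci include intergenic transcripts, transcripts opposite to or inside annotated genes, unannotated ends of known genes, transposable element transcripts and genes that the annotation left out. Maize inbreds differ widely in gene and transposon content, so reads of DAN3130 and JI63 can fall on stretches of B73 that carry no model, while sequence that B73 lacks cannot be seen by alignment to B73. The B73 assembly also holds contigs that were not placed on any chromosome.

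Libraries held between 9428728 and 133264978 reads in loci. Values below are normalized counts, which are reads divided by the authors' size factor for each library, and they are given in the order of the replicate codes: 8, 10 and 11 for DAN3130 on DAP 24, then 12, 13 and 14 on DAP 35 and, mature, 33, 34 and 35, and for JI63 22, 24 and 25, then 26, 27 and 29, then 39, 40 and 41. Kernel identity was visible in named genes, though the endosperm genes stood out mainly in immature samples. The endosperm starch gene shrunken2 was at 14702 or more in every immature library. At maturity it ranged from 177 to 641 in DAN3130 and from 111 to 228 in JI63. The endosperm genes shrunken1, waxy1 and sugary1 and the summed zein loci were likewise lower in mature than in immature libraries. The endosperm gene floury2 was listed at 0 in every library. The embryo and aleurone oil body gene oleosin1 was at 112760 or more in every library. The summed leaf gene for the small subunit of ribulose bisphosphate carboxylase reached at most 242 in any library. The 3 mature DAN3130 libraries stood apart in their spread. Over tested loci without a gene, the SD between replicates on the log2 scale was 2.36 in that group, 1.49 in mature JI63 and 0.74 to 1.24 in the 4 immature groups, and the correlation between pairs of replicates over these loci was 0.49 to 0.69 in mature DAN3130 against 0.78 to 0.80 in mature JI63 and 0.79 to 0.95 in the immature groups. Named signal recognition particle loci took 1.07% of counts in mature DAN3130 replicate 34 and at most 0.199% in any other library. By the paper's sequencing overview, a smaller share of mapped reads had a unique location in mature than in immature libraries of both lines. Its part in the values at maturity was not tested.

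Loci without a gene were short. The longest isoform had a median of 514 bases over all 37156 loci, with quartiles of 314 and 914 and a range of 201 to 28873, against a median of 1556 over the Zm00001d loci. Among loci with a mean over 18 libraries above 10, the level required for testing, the medians were 847 and 2183 bases. The genomic span exceeded the longest isoform, as it does for a spliced or fragmented unit, in 37.7% of loci without a gene and in 66.5% of those tested, against 82.1% and 90.9% of Zm00001d loci. Only 6449 loci without a gene passed the mean of 10, which is 17.4% of them, while 22647 Zm00001d loci passed, which is 56.4%, and 12684 loci without a gene had no read in any library.

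**Figure D1:**
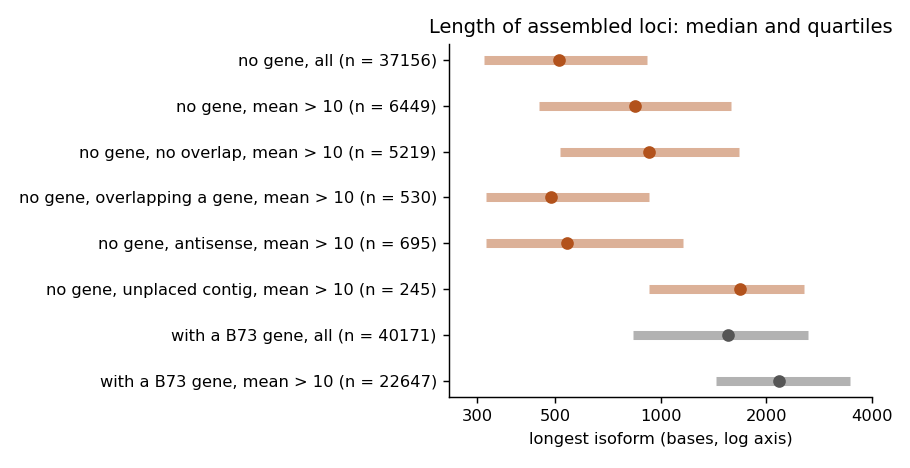
Longest isoform of assembled loci in bases on a log axis, with a point for the median and a bar from the lower to the upper quartile; n is the number of loci. The median was 514 bases for all loci without a gene and 1556 for loci with a B73 gene, and tested loci on unplaced contigs, with a median of 1689, were the longest class without a gene shown.

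By the overlap entries, 26555 loci without a gene (71.5%) were listed with neither an overlapped nor an opposed gene. Another 4874 (13.1%) were listed as overlapping a gene, 5685 (15.3%) as antisense to a gene and 42 as both. By span, 13996 of the 36368 loci without a gene on chromosomes overlapped a Zm00001d locus, more than these entries name. Loci with neither entry are therefore not all outside gene spans. The reads carry no strand and the strand entry is identical for every locus, so the antisense class rests on the deposited entry alone. Among these classes 5219, 530, 695 and 5 loci were tested. On chromosomes 1 to 10 the share of loci without a gene was even, from 46.0% on chromosome 5 to 49.1% on chromosome 4. All 715 loci on 126 unplaced contigs had an empty entry, as none of the contig loci carried an identifier of any kind. The annotation that the paper names is the chromosome set of the B73 release, so genes on contigs may not have been in it. For a contig locus the empty entry therefore does not show that B73 has no gene there. Contig loci passed the mean of 10 more often, 245 of 715 or 34.3% against 17.0% on chromosomes, and the tested ones had a median mean count of 118 against 20.7. They were 1.92% of all loci without a gene and 22 of the 50 with the highest mean.

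Per kb of longest isoform, tested loci without a gene had a median mean count of 33.7 and tested Zm00001d loci 139. Of the tested loci without a gene, 914 had a mean of at least 100 and 109 of at least 1000. A read was found in all 18 libraries for 569 of the tested loci without a gene (8.82%) and for 13679 of the tested Zm00001d loci (60.4%), with medians of 12 and 18 libraries with a read.

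Loci without a gene took between 1.82% and 8.84% of all counts outside introns. In DAN3130 the shares were 2.29%, 2.35% and 3.63% on DAP 24, 3.11%, 3.36% and 2.45% on DAP 35, then 6.35%, 8.84% and 3.0% at maturity. In JI63 they were 2.93%, 3.69% and 4.02% on DAP 24, 2.48%, 1.82% and 2.74% on DAP 35, then 2.42%, 2.56% and 2.44% at maturity. At maturity each DAN3130 library lay above each JI63 library, whereas replicate 35 lay far below the other 2 mature DAN3130 libraries and inside the range of DAN3130 on DAP 35. The mature difference was 3.59 percentage points, from 6.06 ± 2.93% (SD, n = 3) in DAN3130 and 2.47 ± 0.0736% (SD, n = 3) in JI63, with p = 0.1 in the exact two-sided permutation test, the smallest that 3 against 3 libraries allow. Without replicate 34 the difference was 2.2 points and without the locus XLOC_078824 it was 2.13 points. From DAP 24 to DAP 35 the share in JI63 fell by 1.20 points without overlap between the groups (exact permutation p = 0.1), by 0.478 points without XLOC_078824, and in DAN3130 from DAP 35 to maturity it was 3.09 points higher with overlap (exact permutation p = 0.3) and 1.70 points higher without replicate 34. Adjusted over the 8 share comparisons these 3 p-values were 0.4. The line difference over all 3 stages, 1.14 points, had p = 0.18 in the exact test with labels permuted within stage and was 0.574 points without XLOC_078824. In whole kernels a larger share cannot be told apart from less RNA of other loci, nor fewer cells of a type from less RNA per cell.

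To compare libraries at equal depth, reads were thinned to 9428728 per library and loci without a gene with at least 10 reads were counted. Mature DAN3130 held 4894, 4170 and 2523 such loci, mature JI63 1796, 1640 and 1978, and the 12 immature libraries between 1613 and 2720. Replicates 33 and 34 were above every other library and replicate 35 was inside the immature range. The mean was 2058 loci higher in mature DAN3130 than in mature JI63 and 1637 higher than in DAN3130 on DAP 35 (exact permutation p = 0.1 in both, the smallest possible, and 0.27 adjusted over 8 comparisons). Counted at 1 read, the order of stages in DAN3130 turned: mature kernels then had 1470 fewer loci than kernels on DAP 35, and mature DAN3130 had 883 more than mature JI63. Zm00001d loci with at least 10 reads at this depth numbered 15490 to 16559 in mature DAN3130 and 16082 to 16403 in mature JI63.

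**Figure D2:**
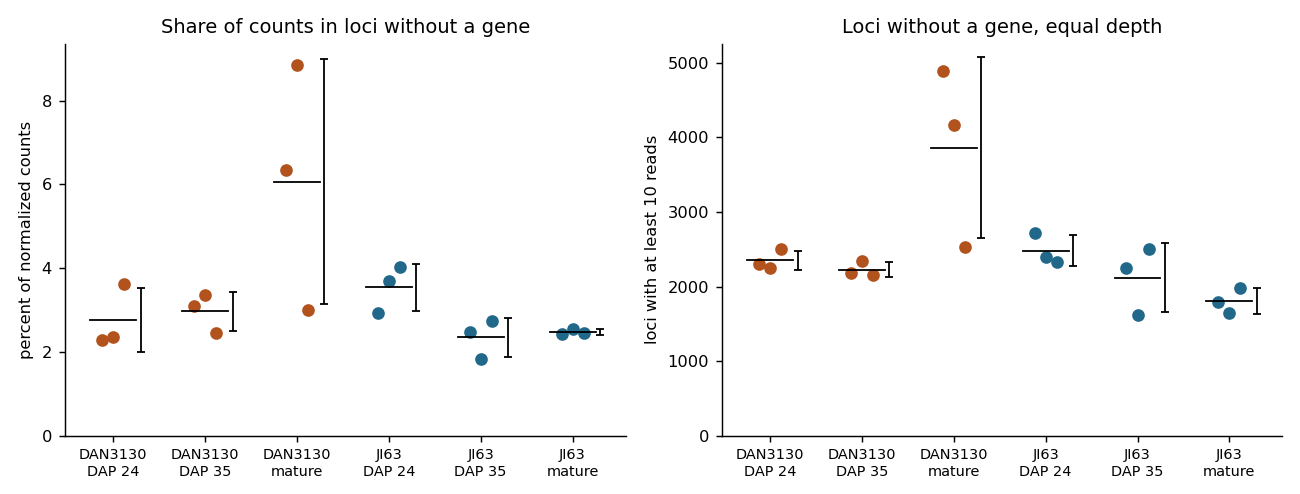
Left, percent of normalized counts outside introns that fell in loci without a B73 gene; right, number of such loci with at least 10 reads after thinning to equal depth. Points are libraries in the order of their codes, lines are group means and bars are 1 SD (n = 3); mature DAN3130 replicates 33 and 34 were above all other libraries in both, at 6.35% and 8.84% and at 4894 and 4170 loci.

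Of the 6449 tested loci without a gene, 44.3% had their highest group mean in mature DAN3130, 15.4% in mature JI63 and 5.55% in DAN3130 on DAP 35, while 17.3% of tested Zm00001d loci were highest in mature DAN3130 and 22.9% in mature JI63. A locus can pass the mean of 10 through mature DAN3130 alone, so this share depends on the filter. Among the 13677 loci without a gene with at least 10 reads in at least 3 libraries, 25.5% were highest in mature DAN3130, beside 16.3% of 25580 Zm00001d loci. In many cases 1 library held most of the count. Of the tested loci without a gene, 1317 (20.4%) had over 50% of their summed count in 1 library, 766 of them in mature DAN3130 replicate 34 and 386 in replicate 33, against 236 Zm00001d loci (1.04%). Among these, 76 had reads in 1 library only, 75 of them in replicate 34. Contig loci were highest in mature DAN3130 in 31.4% of cases.

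**Figure D3:**
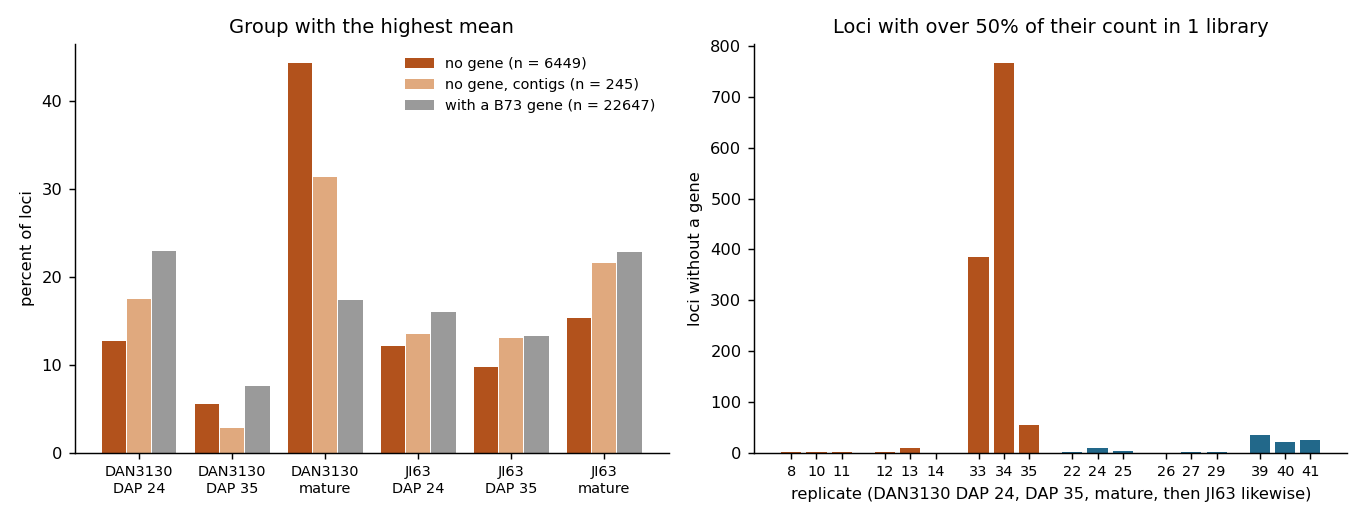
Left, percent of tested loci whose highest group mean fell in each group, for loci without a gene, the subset on contigs and loci with a B73 gene; right, number of tested loci without a gene with over 50% of their summed count in a single library, by library. Mature DAN3130 was the highest group for 44.3% of loci without a gene with a mean above 10, as plotted, and for 25.5% of those with at least 10 reads in 3 libraries, and replicates 34 and 33 held 766 and 386 of the loci dominated by 1 library.

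The 10 loci with the highest means lay on chromosomes in 5 cases and on contigs in 5. The highest was XLOC_078824, on chromosome 9 from 151385929 to 151394540 in AGPv4 coordinates, with a longest isoform of only 271 bases inside a span that overlaps Zm00001d048172. Its values were 21649, 33526 and 301451 in DAN3130 on DAP 24, 221841, 222403 and 69308 on DAP 35, then 407586, 1082026 and 77682 at maturity. In JI63 this locus had 66047, 241581 and 327952 on DAP 24, then 18988, 6956 and 44070.2 on DAP 35, and 1747, 66016 and 27679 in mature kernels. Replicates of 1 group differed widely, the 3 stages of DAN3130 overlapped, and of the 7 comparisons only the fall in JI63 from DAP 24 to DAP 35 was called (log2 fold change -3.27 ± 1.08 (SE), adjusted p = 0.0354). The gene locus Zm00001d048172 itself was listed at 0 in every library.

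Several of the highest loci rose steeply toward maturity. XLOC_021735, 388 bases long and on chromosome 2 from 9659697 to 9662582, was lowest in DAN3130 on DAP 24, with 12.6, 25.2 and 20.4, and highest in mature JI63, with 133848, 134060.3 and 87541. It was called higher in both lines over both intervals, with 246, 209.6 and 336 on DAP 35, then, mature, 3119, 9038 and 11679 in DAN3130. The JI63 libraries held 918, 622 and 452 on DAP 24 and 1641, 5472 and 1569 on DAP 35. No libraries of the 2 lines overlapped on DAP 24, on DAP 35 or at maturity, and JI63 was higher each time (log2 difference -5.02 ± 0.33 (SE), adjusted p = 1.2e-09 on DAP 24, and -4.07 ± 1.005 (SE), adjusted p = 0.0108 at maturity). XLOC_013978, on chromosome 10 from 144717179 to 144719085, was likewise highest in mature JI63, with 2192, 2376 and 3006 in JI63 on DAP 24 and 63451, 45644 and 53661 at maturity, a log2 change of 3.65 ± 0.51 (SE), adjusted p = 1.78e-05 from DAP 35 to maturity. In DAN3130 its values were 1078, 1226 and 1227 on DAP 35, then 4584, 3496 and 17431 at maturity, below every mature JI63 library. XLOC_002268, on chromosome 1 from 197178866 to 197179794, was called higher in DAN3130 between DAP 24 and DAP 35 (1.48 ± 0.26 (SE), adjusted p = 0.000512) and in JI63 between DAP 35 and maturity (1.97 ± 0.38 (SE), adjusted p = 0.000386).

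Contig loci XLOC_083782, XLOC_083510, XLOC_083775 and XLOC_083850 were called higher at maturity in both lines. XLOC_083782, on contig B73V4_ctg207 from 4256 to 30815, had 4997, 14468 and 10261 on DAP 35, then 62307, 200517 and 31244 at maturity in DAN3130. In JI63 it had 4842, 2011 and 3835 on DAP 35 and 46482, 70599 and 51000.1 in mature kernels. The groups did not overlap in either line, and the log2 changes were 3.01 ± 0.87 (SE), adjusted p = 0.015 and 4.04 ± 0.52 (SE), adjusted p = 8.08e-06. XLOC_083510, on contig B73V4_ctg136 from 27703 to 60013, went from 3628, 3111 and 4069.9 to 32019, 145656 and 31309 in DAN3130 and from 2350.1, 1738 and 1770.1 to 42931, 25601 and 31571 in JI63. XLOC_083775, on contig B73V4_ctg203 from 41493 to 47829, went from 4496, 4835 and 2534 to 20698, 77893 and 14766 in DAN3130 and from 625, 795 and 702 to 19511, 8114 and 13838 in JI63. For XLOC_083782, XLOC_083510 and XLOC_083775, replicate 34 held the highest value of all libraries. XLOC_083850, on contig B73V4_ctg26 from 181145 to 185119, was highest in JI63 instead, with 32404, 34456 and 23382 at maturity after 2753, 4961 and 2793 on DAP 35. The fifth contig locus, XLOC_083411 on contig B73V4_ctg107 from 23896 to 27336, kept a narrow range from 7557 to 19626 over all 18 libraries and was called in none of the 7 comparisons.

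XLOC_052630, a locus of 344 bases on chromosome 5 from 12717781 to 12718124, lies 126 bases from the gene locus of oleosin3, whose gene family makes proteins that coat seed oil bodies. The oleosin3 locus was listed at 0 in every library. XLOC_052630 had 3581, 3149 and 7437 in DAN3130 on DAP 24, 28021, 18843 and 10931 on DAP 35, then 55133, 87140.1 and 26249.6 at maturity. In JI63 this locus had 6832, 12239 and 13831 on DAP 24, then 8580.2, 7239 and 9882 on DAP 35, and 33093, 37191 and 23901 in mature kernels. It was called higher on DAP 35 than on DAP 24 in DAN3130 (2.03 ± 0.36 (SE), adjusted p = 0.000609) and higher at maturity than on DAP 35 in JI63 (1.86 ± 0.53 (SE), adjusted p = 0.00773), with no overlap in either pair of groups. Per kb of longest isoform its mean count of 63513 was the second highest of the 10, after 663901 for XLOC_078824.

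Where the gene locus was tested too, tested loci that share ground with a gene were mostly far below it. Of those listed as overlapping a gene, 5 of 465 had a higher mean count than the gene locus. Of those listed as antisense, 9 of 609 did. A gene locus was found for more of them, 529 and 692. An untested gene locus did not reach the mean required for testing, so the tested locus beside it was the higher. Such pairs are not in the counts of 5 and 9. Genes listed at 0 were more frequent beside loci of higher level. Among loci with a mean of at least 100, the gene beside them was listed at 0 in all 18 libraries for 9 of 15 in the overlap class and 19 of 44 in the antisense class, against 53 of 535 and 72 of 700 over the tested loci and 19.1% of all Zm00001d loci. No such difference was seen where the nearest gene lay within 1 kb without overlap, with 9 of 100 at 0 against 81 of 872 over the tested loci. XLOC_037567, on chromosome 4 from 22579011 to 22580202, is the highest locus listed as antisense and lies opposite floury2, which encodes an alpha zein, a storage protein of the endosperm. It had 7582, 32623 and 32171 in JI63 on DAP 24, 1318, 503 and 1779 on DAP 35, then 0, 12.4 and 0 at maturity. In DAN3130 it had 1685, 2351 and 7639.8 on DAP 24, then 7606, 9277 and 2146 on DAP 35, and 91.7, 0 and 4.32 in mature kernels. The mature values were below all immature ones in both lines (III, -9.398 ± 1.98 (SE), adjusted p = 0.00204; IV, -8.798 ± 1.19 (SE), adjusted p = 1.31e-05), while the floury2 locus was listed at 0 in every library. Since the reads carry no strand, the counts of XLOC_037567 and of floury2 cannot be told apart.

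XLOC_042930, 217 bases on chromosome 4 from 5894324 to 5894540, lies 3167 bases from the locus of the 22-kD alpha zein genes 22kD alpha zein4 and AZS22-8. It had 4268, 10565 and 12019 in JI63 on DAP 24, 1412, 1201 and 1814 on DAP 35, then 0, 8.28 and 0 at maturity, a log2 change of -9.44 ± 0.78 (SE), adjusted p = 8.23e-08 over the second interval. In DAN3130 it had 200.4, 243 and 402 on DAP 24, below every immature JI63 library. Its values and those of the zein locus correlated at r = 0.70 on the log2 scale over 18 libraries, a description only, since the libraries share stage and line. Between the lines on DAP 24 the zein locus had the opposite order, with 191147 to 292988 in DAN3130 and 17822 to 63830 in JI63.

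The highest locus listed as both overlapping and antisense was XLOC_041330 on chromosome 4 from 148680935 to 148728301, which spans Zm00001d051210 and Zm00001d051211 and opposes Zm00001d051207. It was called higher in DAN3130 than in JI63 at all 3 stages, with 699, 670.4 and 789 against 251, 272 and 396 on DAP 24 (1.26 ± 0.24 (SE), adjusted p = 0.000292). At maturity 910 in replicate 34 stood apart from 186 and 113 in the other DAN3130 libraries.

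The nearest gene was at a median of 1612 bases from the loci without a gene on chromosomes, and 58.8% lay within 5000 bases or overlapped its span. The log2 levels of a locus and of its nearest gene were correlated over 18 libraries where both were tested. Tested loci whose nearest gene was not tested were left out, so that 628 of 872 within 1000 bases were kept. The median r was 0.22 over 1298 pairs whose spans overlap, 0.23 over 628 pairs within 1000 bases and 0.11 over 594 pairs over 1000 and up to 5000 bases apart. It was 0.039 over 525 pairs over 5000 and up to 20000 bases apart and -0.010 over 986 pairs farther apart. With group means removed the medians were 0.099, 0.033, 0.030, 0.027 and 0.023. All pairs share the same 18 libraries, with their stages, lines and depths, so the coefficients are given as a description.

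Between DAP 24 and DAP 35, while the kernel fills, 621 tested loci without a gene were called higher and 492 lower in DAN3130 (comparison I), where called means a change of at least 2-fold and an adjusted p under 0.05 (limma, Benjamini-Hochberg over all tested loci). Beside these, 7.65% and 5.97% of all 29191 tested loci were called, and 9.63% and 7.63% of the loci without a gene. In JI63 (comparison II) 315 were higher and 439 lower, 4.88% and 6.81%, beside 6.87% and 6.89% of all tested loci. The median log2 change over the loci without a gene was 0.00 in both lines, and over all tested loci -0.04 and 0.00. Of the loci called higher, 93 were so in both lines, 15.0% of those in DAN3130 and 29.5% of those in JI63. Shared calls were counted for loci without a gene only, not over all tested loci. With a mean above 1 as the filter, the majority in DAN3130 turned to lower, with 764 loci higher and 1551 lower. Without JI63 DAP 35 replicate 26 the calls in JI63 numbered 344, and without replicate 29 they numbered 473. edgeR called 219 higher and 20 lower in DAN3130, and 65 and 111 in JI63. Over all tested loci edgeR called 1078 higher and 194 lower in DAN3130, and 885 and 900 in JI63. A mean above 1, which tested 48826 loci in all, gave 2327 higher and 2928 lower over all of these in DAN3130.

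The named loci of each comparison are the 3 with the largest change each way among called loci with a mean of at least 100 and no overlap between groups, so their lack of overlap follows from the choice. In DAN3130 the rises were XLOC_038581, XLOC_019113 and XLOC_078019. XLOC_078019, on chromosome 9 from 97334147 to 97345710, had no read in DAN3130 on DAP 24, then 56.8, 344 and 56.5 on DAP 35, then 2404, 2359 and 1321 at maturity. It was at least 259-fold higher on DAP 35 by the limit of 3 reads over the group, and it was also among the 3 largest rises in JI63, from 2.69, 6.43 and 0 to 48.1, 65.1 and 96.2 (4.496 ± 0.68 (SE), adjusted p = 0.000128). XLOC_038581, on chromosome 4 from 148267948 to 148271283, went from 4.45, 1.64 and 0 to 273, 520.1 and 269 in DAN3130 (7.12 ± 0.58 (SE), adjusted p = 2.91e-07). XLOC_019113, on chromosome 2 from 47866478 to 47867548, is listed as antisense to Zm00001d003554, itself listed at 0, and rose from 0.742, 0 and 0 to 256, 114 and 94.8 (6.88 ± 0.44 (SE), adjusted p = 2.4e-08). The largest rises in JI63 besides XLOC_078019 were XLOC_063443 (5.13 ± 0.55 (SE), adjusted p = 5.82e-06) and XLOC_083362, which lies 1147 bases from glutathione transferase35 and rose from 40.95, 16.1 and 15.9 to 305, 771 and 769 (4.62 ± 0.596 (SE), adjusted p = 3.12e-05).

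Falls over the same interval included XLOC_051000 in DAN3130. This locus, on chromosome 5 from 127691796 to 127698390, fell from 284, 453 and 513 to 36.9, 43.00 and 54.2 (-3.17 ± 0.63 (SE), adjusted p = 0.0016) and had no read in either line at maturity. XLOC_047221 fell from 520.4, 632 and 407 to 48.3, 96.8 and 67.1 (-2.89 ± 0.53 (SE), adjusted p = 0.000839) and XLOC_043960 by a log2 change of -2.76 ± 0.47 (SE), adjusted p = 0.000465. The calls of XLOC_047221 and XLOC_043960 were lost without weights and with edgeR. In JI63 the largest falls were XLOC_048494, from 706, 958 and 749 to 49.96, 17.9 and 25.8 (-4.75 ± 0.92 (SE), adjusted p = 0.00104), the contig locus XLOC_083986, from 479, 423 and 588 to 44.8, 12.2 and 17.6 (-4.46 ± 0.43 (SE), adjusted p = 2.08e-06), and XLOC_038296 (-4.33 ± 0.87 (SE), adjusted p = 0.00146). In JI63 the mature libraries had no read of XLOC_083986 and XLOC_038296.

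From DAP 35 to maturity, when the kernel dries, 787 loci without a gene were called higher and 530 lower in DAN3130 (comparison III), 12.2% and 8.22%, beside 8.69% and 20.0% of all tested loci. In JI63 (comparison IV) 826 were higher and 1240 lower, 12.8% and 19.2%, beside 15.3% and 27.1%. Median log2 changes over the loci without a gene were 0.04 and -0.11, and over all tested loci -0.43 and -0.36. Of the loci called higher, 246 were so in both lines, 31.3% of those in DAN3130 and 29.8% of those in JI63, and of those called lower 238 were shared, 44.9% and 19.2%. Here too, shared calls were not counted over all tested loci. With libraries set to equal totals the median of all tested loci was -0.86 in DAN3130 and -1.18 in JI63. The split of loci without a gene then became 675 higher and 675 lower in DAN3130 and 514 and 1613 in JI63, beside 1759 and 7869, then 2126 and 12647, of all tested loci. In DAN3130 the count of loci without a gene also rested on single libraries and on the weights: 453 higher and 220 lower without mature replicate 33, 316 and 261 without replicate 35, and 1553 and 1053 without group weights. Without group weights 4714 of all tested loci were higher and 8324 lower. A locus can also pass the mean required for testing through mature DAN3130 alone, so the shares called in DAN3130 depend on the filter. With a mean above 1 as the filter, 1055 of 21187 loci without a gene were higher in DAN3130 and 673 lower. Beside these, 2705 and 5689 of all 48826 tested loci were called. The share called higher was then below that of all tested loci, not above it, and the share called lower stayed below.

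Among loci that fell to almost no reads was the contig locus XLOC_083567 on contig B73V4_ctg150 from 193593 to 204747, with 16884, 17279.6 and 13771 in DAN3130 on DAP 24, 8262, 6805 and 9015 on DAP 35, then 0, 99.2 and 8.64 at maturity. The JI63 libraries held 13609, 14570.3 and 15019 on DAP 24, then 4956, 1786 and 3137 on DAP 35, and 0, 39.3 and 0 in mature kernels. It was among the 3 largest falls in both lines (III, -9.66 ± 1.499 (SE), adjusted p = 0.000185; IV, -9.79 ± 0.902 (SE), adjusted p = 2.48e-07), and the mature libraries lay below all others. XLOC_067125 and XLOC_067122, a pair on chromosome 7 from 19459399 to 19465313 and from 19449032 to 19452205, fell likewise. XLOC_067125 went from 1837, 2354 and 1039 on DAP 35 to no read in any mature DAN3130 library, at least 943-fold lower, and XLOC_067122 in JI63 from 1956, 1119 and 2393 to 0, 2.07 and 0 (-10.22 ± 0.71 (SE), adjusted p = 1.25e-08). The third large fall in DAN3130 was XLOC_024327, on chromosome 2 from 231992707 to 231996026, from 865, 882 and 637 to no read, at least 429.7-fold lower.

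The 3 largest rises at maturity in DAN3130 began from few or no reads. XLOC_059206, on chromosome 6 from 120665979 to 120672201, had no read in DAN3130 on DAP 24 or DAP 35 and 2769, 4023 and 1388 at maturity, at least 2859.6-fold higher than on DAP 35. In JI63 it had reads only on DAP 35, with 1.04, 0 and 1.37. XLOC_019296, on chromosome 2 from 68753211 to 68756462, went from 0, 4.03 and 0 to 2030.0, 1452 and 1269 in DAN3130 (9.82 ± 1.71 (SE), adjusted p = 0.000466), and XLOC_063395 from 0, 1.34 and 0 to 618, 3205 and 517 (9.57 ± 1.66 (SE), adjusted p = 0.000474), with replicate 34 far above the other 2. In JI63 the largest rises were the contig loci XLOC_083626 and XLOC_083511 and the chromosome 6 locus XLOC_061068. XLOC_083626, on contig B73V4_ctg166 from 1492 to 11015, went from 12.5, 21.2 and 7.31 to 3272, 2321 and 2057 (7.53 ± 0.85 (SE), adjusted p = 1.94e-06) and was also called in DAN3130 (7.998 ± 1.41 (SE), adjusted p = 0.00052). XLOC_083511, on contig B73V4_ctg136 from 1695 to 2165, shares its contig with XLOC_083510 and rose from 42.2, 17.9 and 26.5 to 3049.8, 3609 and 2592 in JI63 (6.76 ± 0.72 (SE), adjusted p = 1.08e-06). Mature DAN3130 held only 9.66, 14.2 and 15.1 of it, below every mature JI63 library. XLOC_061068 rose from 11.6, 32.6 and 11.9 to 3522, 1349.8 and 1967 (6.904 ± 1.39 (SE), adjusted p = 0.000566).

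Between the lines on DAP 24, 1394 loci without a gene were called higher and 1799 lower in DAN3130 than in JI63, which is 21.6% and 27.9% of those tested, beside 15.0% and 18.1% of all tested loci. On DAP 35 the counts were 1379 and 1452, or 21.4% and 22.5%, beside 12.5% and 14.6%. At maturity they were 817 and 556, or 12.7% and 8.62%, beside 5.83% and 9.19%. On DAP 24 the called share was 53.8% for loci whose entries name neither an overlapped nor an opposed gene, contig loci among them, 31.9% for antisense loci, 29.8% for overlapping loci and 28.2% for contig loci. Of the loci higher in DAN3130 on DAP 24, 1083 were also called higher on DAP 35, which is 77.7% of the first and 78.5% of the second set, and 1207 were called lower at both. Calls of the same sign on both days numbered 2290 of 6449 loci without a gene, beside 5508 of all 29191 tested loci. A difference at all 3 stages was called for 814 loci without a gene (12.6%), 371 of them higher and 433 lower in DAN3130 each time, beside 6.72% of all tested loci. On DAP 35 the split between higher and lower turned with edgeR, to 1197 and 1024, and with DESeq2, to 1313 and 1176. Over all tested loci the split on DAP 35 was 2856 and 2815 with edgeR and 3269 and 3555 with DESeq2. At maturity 477 loci without a gene were higher and 283 lower without DAN3130 replicate 33, 482 and 297 without replicate 35, and 1714 and 1024 without weights. Without weights 3895 of all tested loci were higher at maturity and 5435 lower. With a mean above 1 as the filter, 993 of 21187 loci without a gene were higher in DAN3130 at maturity and 644 lower. Beside these, 1838 and 2711 of all 48826 tested loci were called, so the share called higher stayed above that of all tested loci by a smaller margin.

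**Figure D4:**
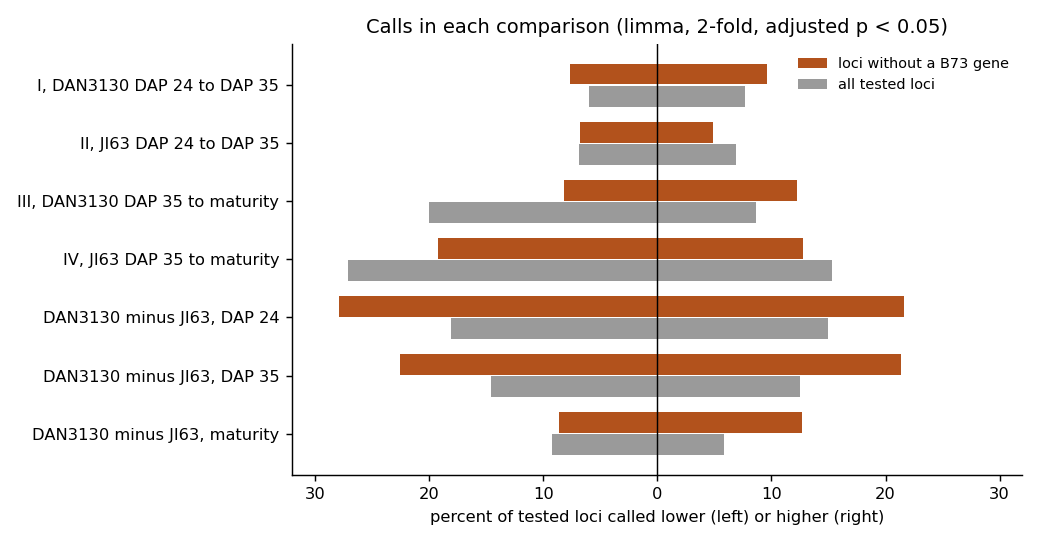
Percent of tested loci called higher (right) or lower (left) in each comparison, for the 6449 loci without a B73 gene and for all 29191 tested loci. In the lines on DAP 24 the bars reached 21.6% and 27.9% for loci without a gene beside 15.0% and 18.1% for all tested loci, while in JI63 from DAP 35 to maturity they reached 12.8% and 19.2% beside 15.3% and 27.1%.

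Many of the named loci were nearly silent in the other line, which follows largely from naming the largest differences. XLOC_043859, 5859 bases on chromosome 4 from 65537785 to 65543643, had no read in DAN3130 on DAP 24 and 5538, 5021 and 7183 in JI63, at least 10030.4-fold lower in DAN3130. In JI63 it dropped to 870.3, 544 and 858 on DAP 35, then 36.1, 0 and 0 at maturity. XLOC_073202, on chromosome 8 from 133576533 to 133582433, was lower in DAN3130 by at least 3378-fold on DAP 24, where JI63 had 2204, 1726 and 2045, and it was also a named fall on DAP 35, with 0, 1.34 and 4.12 against 3090.1, 2429 and 2836 (-10.24 ± 0.496 (SE), adjusted p = 2.71e-10). XLOC_069644, on chromosome 8 from 8340253 to 8346259, had 0, 0 and 1.77 in DAN3130 and 1756, 1449 and 1909 in JI63 on DAP 35 (-10.24 ± 1.31 (SE), adjusted p = 7.81e-06), and XLOC_018285 had 0, 13.4 and 1.18 in DAN3130 and 2868, 1892 and 3605 in JI63 (-9.74 ± 0.74 (SE), adjusted p = 2.31e-08).

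In the other direction, XLOC_014138 on chromosome 10 from 149625468 to 149629499 had 2622, 2532 and 2511 in DAN3130 and 1.08, 3.21 and 0 in JI63 on DAP 24 (10.28 ± 0.54 (SE), adjusted p = 8.28e-11), and at every stage each DAN3130 library was above each JI63 library. XLOC_024327 had 1442, 1506 and 1522 in DAN3130 and no read in JI63 on DAP 24, at least 2262-fold higher, and none in either line at maturity. XLOC_039799, 6878 bases long, had 1180.4, 1446 and 841 in DAN3130 and 0, 0 and 0.482 in JI63 on DAP 24 (9.95 ± 0.46 (SE), adjusted p = 2.11e-11). XLOC_077538, on chromosome 9 from 33841198 to 33856058, had 1588, 2516 and 1224 in DAN3130 and 0, 0.814 and 0 in JI63 on DAP 35 (10.44 ± 0.53 (SE), adjusted p = 4.27e-10), after only 39.3, 38.3 and 59.9 in DAN3130 on DAP 24. XLOC_021164 had 766, 1234 and 1215 in DAN3130 and 0.347, 0.814 and 0 in JI63 on DAP 35 (9.604 ± 0.68 (SE), adjusted p = 9.84e-09). The contig locus XLOC_083522, on contig B73V4_ctg142 from 411514 to 412678, was named on DAP 35 and at maturity, with 5687, 5862 and 4069.9 in mature DAN3130 and 0, 0 and 4.87 in mature JI63 (11.48 ± 1.27 (SE), adjusted p = 2.47e-05). XLOC_050936, on chromosome 5 from 117187869 to 117191269, had 2805, 8737 and 2386 in mature DAN3130 and none in mature JI63, at least 1983-fold higher, and XLOC_019601, 13174 bases long, had 4091, 6761 and 3168 in mature DAN3130 and 2.58, 0 and 0 in mature JI63 (11.504 ± 1.37 (SE), adjusted p = 4.04e-05).

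Loci with reads in 1 line only were counted among those with a mean above 10 in that line. In DAN3130, 2010 of 7571 loci without a gene (26.5%) had no read in any of the 9 JI63 libraries, and in JI63, 1006 of 5053 (19.9%) had none in DAN3130, against 0.762% and 0.932% of Zm00001d loci. The DAN3130 loci were short, with a median of 351 bases against 717 for those of JI63, and 568 of them had reads in 1 library only against 19 in JI63. Reads in all 9 libraries of the line were found for 132 loci of DAN3130 and 259 of JI63. An absence of reads sets a limit on the level of a locus and does not show that the sequence is missing, and at equal depth of 9428728 reads the counts were 565 of 2655 and 344 of 1905, or 21.3% and 18.1%. At a mean above 100 in the line they were 79 of 975 and 61 of 806, or 8.10% and 7.57%, beside 0.101% and 0.143% of Zm00001d loci.

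The JI63 locus of highest mean was XLOC_002750, on chromosome 1 from 232524629 to 232526443, 1317 bases long, with 301, 472 and 479 on DAP 24, 528, 809 and 445 on DAP 35, then 7493, 6859 and 5443 at maturity. DAN3130 was lower by at least 708-fold, 623-fold and 3569-fold at these stages, and the rise in JI63 at maturity was called (3.51 ± 0.52 (SE), adjusted p = 3.29e-05). XLOC_037491 and XLOC_048679 rose further, from 57.4, 379 and 55.1 to 5111, 4179.9 and 3301 (5.26 ± 1.04 (SE), adjusted p = 0.000486) and from 36.3, 21.97 and 36.3 to 3849.6, 1393 and 3861 (6.44 ± 0.63 (SE), adjusted p = 4.43e-07). In DAN3130 the loci of highest mean were XLOC_017307, XLOC_025490 and XLOC_078435, all highest at maturity. XLOC_017307, on chromosome 10 from 108390433 to 108391573, had 29.7, 23.9 and 20.4 on DAP 24, then 145, 152 and 60.1 on DAP 35, and 719, 1774 and 2925 in mature kernels. XLOC_025490, on chromosome 2 from 48107890 to 48108983, had 47.5, 40.2 and 75.9 on DAP 24, then 199, 171 and 177 on DAP 35, and 1284, 1495 and 859.5 in mature kernels. Both were called higher in each interval (XLOC_017307, 2.13 ± 0.42 (SE), adjusted p = 0.00162, then 3.81 ± 1.04 (SE), adjusted p = 0.0112; XLOC_025490, 1.77 ± 0.402 (SE), adjusted p = 0.00414, then 2.69 ± 0.99 (SE), adjusted p = 0.0492). XLOC_078435 had 0, 7.198 and 0 on DAP 24, 0, 116 and 40.6 on DAP 35, then 1308, 1583 and 741 at maturity, and neither of its rises was called.

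**Figure D5:**
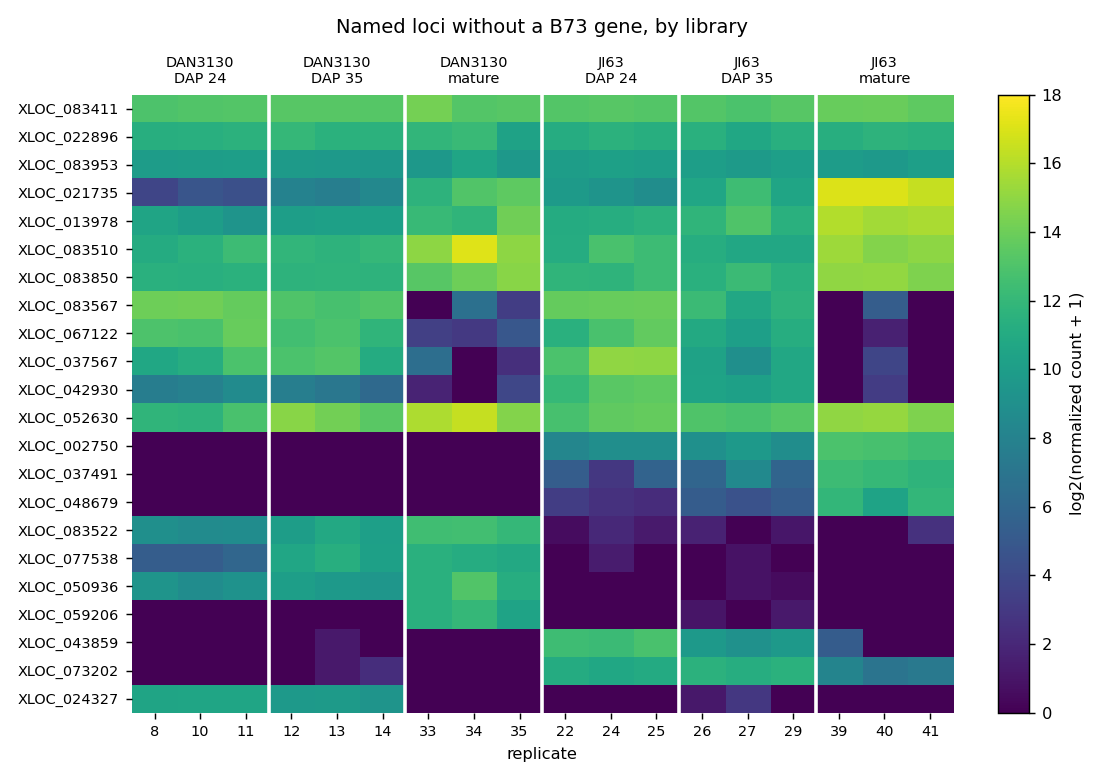
Level of named loci without a B73 gene in each of the 18 libraries, as log2(normalized count + 1), with replicates in columns grouped by line and stage. The plot shows loci near 0 in every library of 1 line, such as XLOC_002750 with no read in DAN3130, and loci with few reads at maturity, such as XLOC_067122, which had 9.66, 7.08 and 29.2 in mature DAN3130.

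Whether an interval changed a locus differently in the lines was tested as the difference of the changes. From DAP 24 to DAP 35 this difference was called for 622 loci without a gene (221 with the change higher in JI63 and 401 lower), beside 4.74% and 5.57% of all tested loci and 10.3% either way, while 9.64% of the loci without a gene were called either way. The count was 278 without JI63 DAP 35 replicate 26, 378 without replicate 29, 120 without weights and 74 with edgeR. Over all tested loci, 192 were higher and 450 lower without weights, and 119 and 410 with edgeR. XLOC_039315, on chromosome 4 from 195603927 to 195608379, had 0, 0 and 1.46 on DAP 24 and 82.4, 114 and 63.00 on DAP 35 in DAN3130. In JI63 this locus had 89.98, 69.1 and 98.2 on DAP 24 and 37.1, 23.6 and 45.2 on DAP 35. The change was called in DAN3130 and not in JI63 (I, 5.98 ± 0.45 (SE), adjusted p = 1.23e-07; II, -1.29 ± 0.46 (SE), adjusted p = 0.0518). Its fitted difference was -7.27 ± 0.64 (SE), adjusted p = 1.19e-05. XLOC_029667 had no read in DAN3130 on DAP 24 and 21.3, 48.4 and 19.4 on DAP 35, against 114, 72.3 and 28.4 on DAP 24, then 28.3, 32.6 and 28.3 on DAP 35, in JI63 (difference -5.85 ± 0.71 (SE), adjusted p = 8.16e-05). XLOC_063443 rose in both lines and more in JI63, from 3.77, 3.21 and 10.6 to 213, 133 and 348 against 11.9, 4.58 and 5.84 to 24.1, 57.8 and 13.5 (difference 3.31 ± 0.77 (SE), adjusted p = 0.00779), and XLOC_029288 rose in JI63 from 59.3, 86.8 and 65.97 to 338, 382 and 313 (difference 3.76 ± 1.11 (SE), adjusted p = 0.0301). In DAN3130 XLOC_029288 had 5.94, 3.93 and 0 on DAP 24 and 0, 0 and 0.589 on DAP 35. Since DAN3130 had no read of XLOC_029667 and 1 read of XLOC_039315 on DAP 24, and 1 read of XLOC_029288 on DAP 35, the sizes of these fitted differences depend on the 1 added before the log and are no bounds. With 5 added they were -3.66, -5.23 and 2.82. The call of XLOC_029288 was lost in 14 alternatives and that of XLOC_063443 without weights and with edgeR.

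From DAP 35 to maturity the difference was called for 383 loci without a gene, 120 with the change higher in JI63 and 263 lower, beside 3.08% and 1.5% of all tested loci and 4.57% either way, while 5.94% of the loci without a gene were called either way. The count was 138 without mature DAN3130 replicate 33, 233 without replicate 35 and 1211 without weights. Without weights 2156 of all tested loci were higher and 1666 lower. XLOC_059206, read at maturity in DAN3130 only, had a difference of -12.04 ± 1.06 (SE), adjusted p = 3.66e-05. XLOC_065453, 3088 bases in span on chromosome 7 from 68333289 to 68336376, had no read in DAN3130 on DAP 35, then 736, 1452 and 366 at maturity, against 3.47, 4.88 and 16.9 on DAP 35, then 0, 0 and 34.1 in mature kernels of JI63 (difference -10.77 ± 2.699 (SE), adjusted p = 0.0317). XLOC_024327 and XLOC_042944 were read in DAN3130 on DAP 35 and in no mature library. XLOC_042944, on chromosome 4 from 6366110 to 6366921, fell from 501, 406 and 287 in DAN3130, at least 215-fold, and had 1.39, 0 and 0 in JI63 on DAP 35 (difference 8.18 ± 1.92 (SE), adjusted p = 0.0229). For XLOC_024327 the difference was 8.27 ± 1.503 (SE), adjusted p = 0.00522. The calls of XLOC_065453 and XLOC_042944 were lost when any 1 of the mature DAN3130 libraries was left out, that of XLOC_065453 also without JI63 replicate 29 of DAP 35 and without mature JI63 replicate 39 or 40, and that of XLOC_042944 also with edgeR. That of XLOC_024327 was lost with edgeR. All 4 have groups without a read, so the sizes of their fitted differences depend on the 1 added before the log and are no bounds. With 5 added they were -9.17 for XLOC_059206, -7.51 for XLOC_065453, 6.80 for XLOC_024327 and 6.18 for XLOC_042944.

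Some loci without a gene kept a like level throughout. For loci whose mean reached 100, the smallest range of group means on the log2 scale was found for XLOC_013274, XLOC_022896 and the contig locus XLOC_083953. XLOC_083953, on contig B73V4_ctg51 from 27801 to 55976, ranged from 759 to 1523 in DAN3130 and from 867 to 1183 in JI63. XLOC_013274, on chromosome 10 from 97530925 to 97534498, ranged from 269 to 701 in DAN3130 and from 341 to 666 in JI63. XLOC_022896, on chromosome 2 from 117804248 to 117808403, ranged from 1345 to 4629 in DAN3130 and from 1705 to 3209 in JI63. None of the 3 was called in any of the 7 comparisons, which does not show that their levels were equal.

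The 3 longest tested loci were XLOC_029060, XLOC_000988 and XLOC_049209, with longest isoforms of 28873, 26144 and 23965 bases. XLOC_000988, on chromosome 1 from 58307247 to 58333390, was a single block as long as its span and had 61.6, 26.8 and 26.3 in DAN3130 and 4141, 3310.0 and 3699 in JI63 on DAP 24 (-6.68 ± 0.397 (SE), adjusted p = 3.6e-10). Its DAN3130 values at maturity were 111, 3.54 and 19.4 and its JI63 values 2015, 1261 and 2928. XLOC_029060, on chromosome 3 from 63018715 to 63053961, had no read in DAN3130 on DAP 24 and 2218, 1602 and 1946 in JI63, then 195, 105 and 203 on DAP 35, a fall of the log2 level (-3.56 ± 0.59 (SE), adjusted p = 0.000292). XLOC_049209, on chromosome 5 from 215004922 to 215033625, was read in all 18 libraries, with 618, 572 and 555 in DAN3130 and 1532, 1231 and 1303 in JI63 on DAP 24, and its line difference was called only on DAP 24 (-1.21 ± 0.21 (SE), adjusted p = 9.67e-05).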

How the data were processed

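RNA of 18 kernel libraries (2 lines, 3 stages, 3 replicates each) was sequenced on an Illumina platform. Per the labels and the study's methods, the authors aligned reads to B73 (AGPv4) with HISAT2 2.1.0 without strand, assembled loci with Cufflinks and Cuffcompare, counted reads with HTSeq 0.11.2 and divided the counts by DESeq2 size factors, so the deposited values are a signal per locus in normalized counts. All values (100%) were whole multiples, within 0.001 reads, of the value of 1 read in their library, and reads were recovered in this way. Of 103962 entries, 26258 intron entries were left out. The strand entry is the same for every locus. No genome sequence was used here, so no sequence is printed.

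Loci without a B73 gene are those with an empty list of assigned identifiers. Members, lists and rules were chosen with earlier results of these data known. The tests used limma 3.58.1 in R 4.3.3 on log2(value + 1), for loci with a mean above 10 over 18 libraries, in 1 model of 6 groups with weights per group and a trended prior. Fold changes are on this scale, which understates the change of low loci. A locus was called at an absolute log2 fold change of at least 1 with p under 0.05 after Benjamini-Hochberg adjustment across the 29191 tested loci. Changes are later minus earlier stage, and DAN3130 minus JI63. All adjusted p-values of loci in the report are from this fit. Where a group had no read, the fold between 2 groups is the mean of the other group over a limit of 3 reads. It is a lower bound for counting alone and leaves out the spread between replicates. The fitted difference of 2 changes then depends on the added 1. Other intervals from counting alone were not given, since the spread between replicates was larger. Named loci were the 10 of highest mean, in each comparison the 3 largest called changes each way with a mean of at least 100 and no overlap of groups, the 2 largest differences of changes each way, and in each line the 3 highest of those read only there. The 3 longest, the highest of each overlap class and the 3 steadiest completed the rule. Alternatives were edgeR 4.0.16 and DESeq2 1.42.0 on recovered reads, no weights, other filters and pseudocounts, equal totals, only the groups compared, and leaving out each library. The filter on 10 reads in 3 libraries, for calls and for the group of highest mean, the share without XLOC_078824, the share with GRMZM loci and the leave-one-out counts of loci read in 1 line were added after seeing the data. The fit was also run on simulated data with the same dispersion in every group, which does not test it under the unequal spread of these groups.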

Additional observations from a re-analysis of the deposited data

Results flagged for a closer look

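The change from DAP 24 to DAP 35 differed between the lines for 622 loci without a gene, and the change from DAP 35 to maturity for 383, which is 9.64% and 5.94% of those tested beside 10.3% and 4.57% of all tested loci, each by the limma test of the difference with Benjamini-Hochberg adjustment. The largest differences from DAP 24 to DAP 35, as JI63 minus DAN3130 on the log2 scale, were -7.27 for XLOC_039315 (adjusted p = 1.19e-05) and -5.85 for XLOC_029667 (adjusted p = 8.16e-05) on the lower side, and 3.76 for XLOC_029288 (adjusted p = 0.0301) and 3.31 for XLOC_063443 (adjusted p = 0.00779) on the higher side. From DAP 35 to maturity they were -12.04 for XLOC_059206 (adjusted p = 3.66e-05), -10.77 for XLOC_065453 (adjusted p = 0.0317), 8.27 for XLOC_024327 (adjusted p = 0.00522) and 8.18 for XLOC_042944 (adjusted p = 0.0229). These 8 loci were chosen as the largest called differences, so their sizes are a description. For XLOC_039315, XLOC_029667, XLOC_029288 and the 4 loci of the second interval, a group had no read or 1 read, so the size depends on the 1 added before the log and is no bound. With 5 added, the 8 differences were -5.23, -3.66, 2.82, 2.98, -9.17, -7.51, 6.80 and 6.18 in the same order. The call of XLOC_024327 was lost with edgeR. The mature DAN3130 libraries, which enter the differences of the second interval, had an SD of 2.36 over all tested loci without a gene, and the part of this spread in them was not tested.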

How the results depend on the processing

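Counts of called loci without a gene depended on weights, filter and test, and the cause was not tested. Without weights they were 359 in I, 310 in II, 2606 in III, 2738 between the lines at maturity, 120 for II minus I and 1211 for IV minus III. edgeR gave 239, 176, 2525, 2619, 74 and 226 for these, and DESeq2 535, 367, 2534, 2703, 237 and 707. At an unadjusted p they were 1170 in II, 2021 in III, 2210 between the mature lines, 1384 for II minus I and 1470 for IV minus III. More loci were tested with lower filters. A mean above 1 gave 2315 in I, 2042 in II, 4493 in IV, 8672 and 6872 between the lines on DAP 24 and DAP 35 and 1608 for II minus I. No filter gave 2277, 2039, 5110, 8608, 7221 and 1599 for these, with 2143 in III and 996 for IV minus III. With 10 reads in 3 libraries, chosen after seeing the data, they were 1891, 1472, 4064, 7182, 6043 and 1144, with 838 for IV minus III and 873 higher against 971 lower in III. Fitting only the groups compared gave 519 in I, and a pseudocount of 5 gave 692 for IV minus III. Over all tested loci the counts moved as well. Without weights these were 1072 higher and 402 lower in I, 925 and 976 in II, 4714 and 8324 in III, and 3895 and 5435 between the mature lines. With edgeR they were 1078 and 194, 885 and 900, 5063 and 7079, and 3925 and 4476.

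Leaving out 1 library gave 805 to 1230 called loci in I, 344 to 980 in II, 577 to 1423 in III, 1496 to 2310 in IV, 2848 to 3307, 2244 to 3145 and 760 to 1205 between the lines on DAP 24, on DAP 35 and at maturity, 278 to 800 for II minus I and 138 to 454 for IV minus III. The count in II was 344 without JI63 DAP 35 replicate 26 and 473 without replicate 29, and II minus I was 278 and 378 without these. The percent called was above that of all tested loci in 16 of 16 alternatives for the lines on DAP 24 and on DAP 35, in 13 of 16 at maturity, in 14 of 16 for I and in 0 of 16 for II, III and IV. For II minus I it was above in 1 of 22 alternatives and for IV minus III in 17 of 22. Of 50 calls of named loci none changed direction, and 6 were lost with edgeR, 4 without weights and 18 of 348 when 1 library was left out. These calls were chosen as the largest in the same libraries, so their constant direction follows largely from the choice.

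Without the 10 highest loci the difference in share of counts turned to -0.0854 points in I, -0.455 in IV and -0.0484 between the lines on DAP 35. Leaving out 1 library, the share differences ranged from -0.0197 to 0.652 in I, -1.51 to -0.938 in II, 1.70 to 4.62 in III, -0.136 to 0.321 in IV, and -1.23 to -0.549, 0.364 to 0.888 and 2.2 to 5.12 between the lines on DAP 24, on DAP 35 and at maturity. Differences in detected loci ranged from -185 to -53.5 in I, -550.3 to -107 in II, 1122 to 2307 in III, -569 to -126 in IV, and -210 to -10.7, -149 to 294 and 1542 to 2727 between the lines. Counted at 100 reads the difference in I was 14.0, and at 1 read it was 91.0 in II, -1470 in III, -3144 between the lines on DAP 35 and -1288 over all stages. Loci read in 1 line numbered 79 in DAN3130 and 61 in JI63 at a mean above 100, 565 and 344 after thinning, 1602 in JI63 with up to 9 reads allowed in the other line, and 1459 to 2197 and 1014 to 1179 without 1 library. The median length was 847 bases over tested loci, and 25.5% of the loci with 10 reads in 3 libraries were highest in mature DAN3130. No paired analysis was possible because the library codes are not shared between groups.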
